A study of Mus musculus with 44 samples.

Results

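The comparison described here is that of Pou5f1-KO with control (Ctrl) late inner cell mass (ICM) of mouse embryos at E4.5, across all 152393 open chromatin windows (peaks) of 200 bp measured by ATAC-seq. It uses 8 of the 44 ATAC-seq libraries of the series, 4 KO and 4 Ctrl, taken by genotype and stage from the labels, and every window of the series is a member. ATAC-seq marks open chromatin by the insertions that the transposase Tn5 makes where DNA is accessible. The values are rlog values, a log2-scale measure of the insertions in a window. Each library was a pool of 20 to 40 ICMs, and a window with fewer open cells cannot be told apart here from a window that is less open in each cell.

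KO embryos lacked the maternal and the zygotic copy of Pou5f1. Their mothers were Pou5f1 flox/flox; Zp3-Cre females, in which Cre acts in the growing oocyte, and their fathers passed on the Pou5f1 mKO2 knockout allele. Ctrl embryos came from the same kind of mating but received the wildtype paternal copy, so they lacked the maternal copy too and were not wildtype embryos. The mKO2 allele carries a fluorescent reporter driven by a PGK promoter, by which KO embryos were recognised. The labels give B6C3F1 for every library. The embryos of these 8 libraries were taken at E2.5 from superovulated females and grown in KSOM with 1 µM PD0325901, an inhibitor of MEK, to the late blastocyst stage, and the ICM was freed of trophectoderm by immunosurgery. The early ICM libraries used further on were made in the same way at the early blastocyst stage, whereas the morula and late morula libraries hold whole embryos for which the labels give no PD0325901. The labels do not say which pools were collected together, so p-values measure only the spread between these pools.

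Pou5f1 encodes OCT4, a POU transcription factor of the early embryo that often binds DNA together with SOX2, on a joint OCT-SOX element. The ICM gives rise to the epiblast, which forms the embryo proper, and to the primitive endoderm, while the surrounding trophectoderm contributes to the placenta. Factors such as NANOG and ESRRB belong to the epiblast, GATA4 and SOX17 to the primitive endoderm, and CDX2, GATA3 and the TEAD co-activator YAP to the trophectoderm.

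Of the windows that decreased, 6 are printed because they hold OCT-SOX words, in a far intergenic window (Thsd7a), introns (Pecam1, Lsamp) and near genes of pluripotency (Dppa3, Sox2), and because 3 of them (Thsd7a, Pecam1, Tspan2) share their words and the bases around them. The OCT-SOX word searched is a SOX part TTGT, 1 free base and an OCT part ATGCAAA, with at most 1 mismatch over the 11 fixed letters, on both strands, and its matches are in capitals. Bases were read from GRCm38 (mm10), 5′ to 3′ on the strand that carries the word as written.
Thsd7a: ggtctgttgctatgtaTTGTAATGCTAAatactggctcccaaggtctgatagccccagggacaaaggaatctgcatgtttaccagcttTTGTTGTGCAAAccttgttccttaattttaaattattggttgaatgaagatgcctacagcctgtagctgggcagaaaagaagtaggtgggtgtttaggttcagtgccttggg
Pecam1: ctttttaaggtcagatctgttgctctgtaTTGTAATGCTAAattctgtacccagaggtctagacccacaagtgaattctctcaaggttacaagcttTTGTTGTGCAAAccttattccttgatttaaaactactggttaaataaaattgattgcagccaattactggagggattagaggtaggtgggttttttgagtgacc
Tspan2: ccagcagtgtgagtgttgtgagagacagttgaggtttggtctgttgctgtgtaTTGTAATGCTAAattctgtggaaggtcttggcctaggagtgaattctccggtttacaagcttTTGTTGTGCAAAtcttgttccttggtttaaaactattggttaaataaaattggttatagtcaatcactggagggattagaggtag
Lsamp: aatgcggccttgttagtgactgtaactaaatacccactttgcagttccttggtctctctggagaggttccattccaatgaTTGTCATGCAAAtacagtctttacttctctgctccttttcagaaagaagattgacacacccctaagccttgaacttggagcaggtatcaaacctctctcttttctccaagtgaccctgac
Dppa3: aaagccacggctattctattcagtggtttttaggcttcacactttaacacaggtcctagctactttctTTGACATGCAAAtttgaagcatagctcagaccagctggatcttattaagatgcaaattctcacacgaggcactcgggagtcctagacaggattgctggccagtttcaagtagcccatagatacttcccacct
Sox2: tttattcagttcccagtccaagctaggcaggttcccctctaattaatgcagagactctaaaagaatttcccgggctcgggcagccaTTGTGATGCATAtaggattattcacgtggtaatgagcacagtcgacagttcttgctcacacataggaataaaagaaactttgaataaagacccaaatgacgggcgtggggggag
The Thsd7a window is chr6:12815507-12815706 on the plus strand, the Pecam1 window chr11:106724459-106724658 on the minus strand, and the Tspan2 window chr3:102718055-102718254 on the plus strand. The Lsamp window is chr16:41633997-41634196 on the plus strand, the Dppa3 window chr6:122624562-122624761 on the minus strand, and the Sox2 window chr3:34653965-34654164 on the plus strand. The word of Lsamp has no mismatch, and those of the other windows have 1.

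Of the windows that increased, 4 are printed because each holds the GATA word AGATAA, the most frequent word among increased windows. Capitals mark this word and the TEAD word GGAATG, or their reverse complements, on the plus strand of GRCm38.
Prss2: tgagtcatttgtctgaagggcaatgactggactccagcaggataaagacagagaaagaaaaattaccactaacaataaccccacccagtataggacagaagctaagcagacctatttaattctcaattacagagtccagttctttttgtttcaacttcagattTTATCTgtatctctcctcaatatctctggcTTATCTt
Tmcc3: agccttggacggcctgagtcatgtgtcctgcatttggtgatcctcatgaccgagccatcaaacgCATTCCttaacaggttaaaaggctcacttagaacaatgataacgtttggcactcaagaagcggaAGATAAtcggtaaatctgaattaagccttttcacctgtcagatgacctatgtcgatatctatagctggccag
Ddr1: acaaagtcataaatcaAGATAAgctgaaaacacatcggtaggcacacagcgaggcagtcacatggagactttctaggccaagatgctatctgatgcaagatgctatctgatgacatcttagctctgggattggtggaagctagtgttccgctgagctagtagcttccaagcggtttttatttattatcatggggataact
Tspan8: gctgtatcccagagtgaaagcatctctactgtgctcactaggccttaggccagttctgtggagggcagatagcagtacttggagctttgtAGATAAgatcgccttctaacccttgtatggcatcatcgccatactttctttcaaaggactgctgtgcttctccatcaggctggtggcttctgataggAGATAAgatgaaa
The Prss2 window is chr6:41548489-41548688 and lies between genes, and the Tmcc3 window is chr10:94581090-94581289 in an intron of Tmcc3. The Ddr1 window is chr17:35727154-35727353 and the Tspan8 window chr10:115722728-115722927, both between genes. Of all 152393 windows, 17.5% hold the GATA word, 18.9% the TEAD word and 0.887% the OCT-SOX word with at most 1 mismatch, so only the last is rare.

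The 8 libraries were alike in overall level. Median rlog ranged from 2.35 to 2.58 in KO and from 2.48 to 2.59 in Ctrl libraries, and the median of all KO minus Ctrl differences was -0.04. Across windows, which are not independent replicates, Pearson's r was 0.836 to 0.885 between KO libraries, 0.838 to 0.908 between Ctrl libraries and 0.711 to 0.772 between a KO and a Ctrl library. The number of insertions per library is not known, so the precision rests on the spread between libraries.

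The cell type was checked by peaks at the start sites of marker genes. Of 7 epiblast markers 5 had such a peak, with Ctrl means of 4.15 to 5.48 rlog. In KO 3 of these 5 decreased, those of Nanog (-1.66), Prdm14 (-1.43) and Fgf4 (-1.80), and the mean over the 5 peaks was 3.79 to 3.90 in KO and 4.81 to 5.17 in Ctrl libraries. Of 7 primitive endoderm markers 5 had a start-site peak, none of which was called, and their mean was 2.62 to 3.37 in KO and 3.15 to 3.72 in Ctrl libraries, with that of Foxa2 lowest, at 0.63 in Ctrl. Within 10 kb of these 7 genes, however, 10 of 35 windows decreased and 2 increased, against 24 and 1 of 61 for the epiblast and 6 and 8 of 70 for the trophectoderm markers. Over all protein-coding genes 8.25% of windows within 10 kb decreased and 6.65% increased, and 5.29% and 1.44% of windows at start sites. Of 8 trophectoderm markers 7 had a start-site peak, 1 of which increased, that of the keratin gene Krt18 (+1.02), and their mean was 4.19 to 4.81 in KO and 3.82 to 4.40 in Ctrl libraries. Start sites of trophectoderm genes such as Cdx2 (4.92) and Tead4 (5.11) were thus open in Ctrl ICM as well. The part of a change in cell types in the results that follow was not tested.

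In Pou5f1-KO late ICM windows changed in both directions, and large changes were mostly decreases. With limma over all windows and a Benjamini-Hochberg adjusted p under 0.05, 15404 windows decreased (10.1%) and 12481 increased (8.19%). The higher number of decreases depended on the processing, since there were 13553 and 13569 with quantile normalization and 7674 and 7714 among windows at or above the median rlog. The median difference was -1.56 (quartiles -2.03 and -1.29) in decreased and +1.39 (quartiles 1.22 and 1.63) in increased windows. Differences of at least 2 were found in 4020 decreased (26.1%) but in 829 increased windows (6.64%), and differences of at least 3 in 741 and 5. With quantile normalization differences of at least 2 were found in 24.8% of decreased and 6.20% of increased windows. Decreased windows had a median of 3.46 rlog in Ctrl and 1.60 in KO, and increased windows 2.09 in Ctrl and 3.62 in KO. All 4 KO libraries lay below all 4 Ctrl libraries in 79.1% of the decreased windows, and above them in 73.7% of the increased windows. Of all windows, 10.8% had every KO library below every Ctrl library and 8.81% above. Because rlog shrinks windows with few insertions toward their mean, differences at weak windows are understated.

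The 10 largest decreases lay in introns or between genes, and KO levels there were low. The Thsd7a window lies 66196 bp upstream of the nearest start site, that of Thsd7a, a gene for a thrombospondin-repeat membrane protein. Its rlog was 1.33, 1.34, 1.05 and 0.97 in the KO and 5.56, 5.40, 5.96 and 6.20 in the Ctrl libraries, a difference of -4.61 (SE 0.43, limma adjusted p = 2.9e-15). The groups were separated by about 4 rlog units with no library between them. The Lsamp window, in an intron of a gene for a neuronal cell adhesion protein, read 1.45, 1.00, 0.73 and 1.07 in KO and 6.21, 5.48, 5.50 and 5.34 in Ctrl (-4.57, SE 0.41, limma adjusted p = 5.4e-16). A window chr3:21672594-21672793, with Tbl1xr1, a gene for a corepressor subunit, as its nearest gene at 403959 bp, read 1.59, 1.53, 0.85 and 1.95 in KO and 6.22, 6.16, 6.01 and 5.92 in Ctrl (-4.60, SE 0.38, limma adjusted p = 1e-17). At each of these windows the lowest Ctrl library stood more than 3 units above the highest KO library.

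The other windows among the 10 largest decreases lay in introns of Slc25a46 (-4.76), Ncam2 (-4.47) and Adcy9 (-4.43), and between genes nearest to Gm6871 (-4.54), Grsf1 (-4.47), Hpgd (-4.41) and Olfr761 (-4.39). Slc25a46 encodes a mitochondrial outer membrane protein, Ncam2 a cell adhesion molecule and Adcy9 an adenylyl cyclase. Hpgd encodes the enzyme that inactivates prostaglandins and Grsf1 an RNA-binding protein. Among these 10 windows 5 held an OCT-SOX word, those at Slc25a46, Thsd7a, Lsamp, Ncam2 and Adcy9, and all 10 also decreased in Sox2-KO late ICM, by 1.78 to 4.39.

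The largest increases also lay outside promoters. The largest was at chr3:52656169-52656368, 338417 bp from the nearest start site, that of Cog6, a gene of a Golgi tethering complex. It read 4.41, 4.58, 4.57 and 4.80 in KO and 1.36, 0.58, 0.77 and 1.40 in Ctrl (+3.56, SE 0.42, limma adjusted p = 5.9e-11). In an intron of Lmo7, which encodes a protein of adherens junctions and the actin cytoskeleton, the values were 6.38, 6.17, 6.08 and 5.94 in KO and 3.22, 2.92, 3.27 and 2.58 in Ctrl (+3.14, SE 0.32, limma adjusted p = 9.8e-14). The Lmo7 window was already open in Ctrl, whereas the Cog6 window was low there. The Prss2 window, 26801 bp from the start of this trypsin gene, read 3.86, 3.16, 3.76 and 3.51 in KO and 0.47, 0.25, 1.16 and 0.24 in Ctrl (+3.04, SE 0.42, limma adjusted p = 1.4e-08). The Rab3b window, 30589 bp from the start of a gene for a GTPase of vesicle release, read 4.44, 4.43, 4.58 and 4.64 in KO and 1.34, 2.02, 1.41 and 1.73 in Ctrl (+2.90, SE 0.40, limma adjusted p = 1.3e-08). Others were nearest to Ikzf2 (+3.22), a zinc finger factor gene, in introns of Mark2 (+2.96), a polarity kinase gene, and Tmcc3 (+2.89), and near Ddr1 (+2.88), a collagen receptor gene, and Tspan8 (+2.88), a tetraspanin gene. None of these 9 windows held an OCT-SOX word, and 5 held the GATA word, those at Prss2, Rab3b, Tmcc3, Ddr1 and Tspan8.

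**Figure D1:**
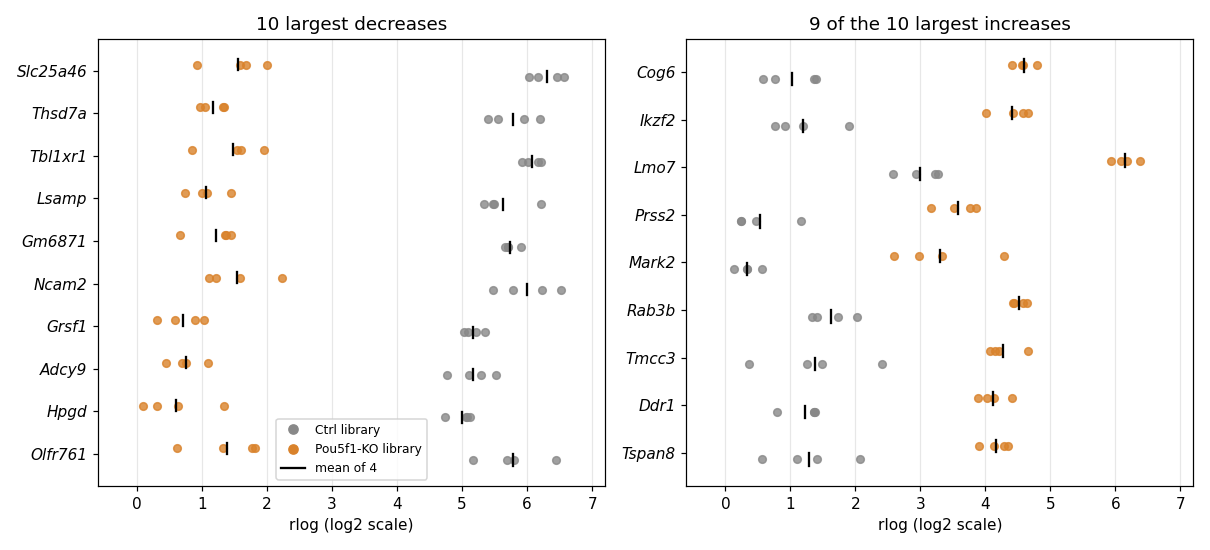
Accessibility of the 10 windows with the largest decrease (left) and of 9 of the 10 with the largest increase (right). The horizontal axis is rlog (log2 scale), each point is a library of 20 to 40 pooled ICMs, bars are means of 4, and rows are named by the gene that holds the window or, between genes, the nearest gene. Decreased windows fell to KO means between 0.59 and 1.55 from Ctrl means between 5.00 and 6.31, and no row has overlapping groups.

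Peaks at start sites were affected less often than other peaks. Of 10498 windows centred within 100 bp of a start site of a protein-coding gene, 555 decreased (5.29%) and 151 increased (1.44%), against 10.1% and 8.19% of all windows. The largest decrease was at Etv1, a gene for an ETS factor downstream of FGF signalling, where KO libraries read 0.95, 2.47, 1.17 and 0.63 and Ctrl libraries 5.76, 5.12, 5.11 and 5.41 (-4.05, SE 0.43, limma adjusted p = 1.2e-12). It was followed by the starts of Spire1 (-3.99), an actin nucleator gene, Ssr2 (-3.88), a gene of the translocon-associated complex, Traf3ip2 (-3.66), an adaptor gene of IL-17 signalling, Pipox (-3.18), a peroxisomal oxidase gene, and Frmd4b (-3.01), a scaffold gene. The start-site windows of Ssr2, Traf3ip2, Pipox and Frmd4b held OCT-SOX words, that of Pipox without a mismatch. The 6 largest increases at start sites were smaller, from +1.94 to +2.72. They were those of Kctd1 (+2.72), Skiv2l (+2.06), 4930486L24Rik (+2.05), Themis (+2.04), Gm12830 (+1.96) and Hk1 (+1.94), the last a hexokinase gene. Kctd1 read 4.84, 4.72, 4.62 and 4.57 in KO and 2.37, 0.63, 2.33 and 2.53 in Ctrl, with Ctrl library 2 well below the other 3.

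By position, 57.0% of decreased, 49.7% of increased and 47.6% of uncalled windows were intergenic, and 37.6%, 46.4% and 43.2% were intronic. Windows beyond 50 kb of any start site made up 10.3% of decreased, 7.76% of increased and 6.18% of uncalled windows. At least 4 CpG sites were found in 23.5%, 19.1% and 35.9% of these 3 sets. In a description added after the data were seen, windows that were mostly (at least 50%) marked as repeat in the genome sequence made up 27.2% of decreased, 15.1% of increased and 23.5% of uncalled windows. Decreased windows were thus the most often intergenic, distant and repeat-derived, and increased windows the least often repeat-derived.

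The neighbouring genes were described by 12 lists, and a window was counted for a gene when its centre lay within 10 kb of a start site. Over all protein-coding genes 70843 windows lay that near, of which 5842 decreased (8.25%) and 4712 increased (6.65%), with a median difference of -0.08. Of 17567 genes with such a window, 4552 (25.9%) had a decreased window, 3871 (22.0%) an increased window and 861 both. For each list the windows named are those of the genes with the largest differences, each taken at its lowest adjusted p. The lists were chosen with earlier results of these data known, so their shares and order are a description.

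Around genes of naive pluripotency factors, 28 of 127 windows decreased (22.0%) and 2 increased (1.57%), with a median difference of -0.43. The Dppa3 window, 1749 bp from the start of a gene for a maternal factor that protects DNA methylation, read 1.52, 1.49, 1.52 and 3.15 in KO and 5.35, 5.73, 5.70 and 5.74 in Ctrl (-3.71, SE 0.39, limma adjusted p = 7.1e-13). KO library 4 stood above the other 3 but below every Ctrl library. The Sox2 window, 3659 bp downstream of the start, read 0.95, 1.47, 1.49 and 1.15 in KO and 3.85, 4.88, 4.19 and 4.56 in Ctrl (-3.10, SE 0.43, limma adjusted p = 1.4e-08). An intronic Esrrb window read 0.74, 0.93, 1.61 and 1.40 in KO and 5.28, 3.57, 3.60 and 3.55 in Ctrl (-2.83, SE 0.43, limma adjusted p = 2.3e-07). A window 7581 bp from a start of Tfcp2l1, another naive factor gene, decreased by 1.98. The 2 increased windows were those near Klf5 (+1.35) and Sall4 (+1.12), so 9 of the 17 measured genes had a decreased and 2 an increased window. The other 6 had neither, and Esrrb alone had 9 decreased windows. Windows within 10 kb of Klf4 and Klf2 were not called.

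Genes associated with pluripotency had the largest share of decreased windows within 10 kb among the 12 lists, 53 of 198 (26.8%), against 3 that increased (1.52%), and 19 of the 20 genes had a decreased window. The Pecam1 window, in an intron of a gene for an adhesion molecule used as an ICM marker, read 1.37, 1.73, 0.69 and 1.46 in KO and 4.45, 5.07, 5.57 and 5.21 in Ctrl (-3.76, SE 0.42, limma adjusted p = 5.9e-12). A window 3280 bp from a start of Fgf4, the growth factor that the epiblast sends to the primitive endoderm, read 1.12, 0.74, 0.51 and 0.80 in KO and 4.16, 4.43, 4.73 and 4.15 in Ctrl (-3.58, SE 0.42, limma adjusted p = 4e-11). Both windows were thus above 4 in all Ctrl and below 2 in all KO libraries. Windows of Utf1 (-3.09), a chromatin-bound pluripotency factor gene, and Gdf3 (-3.05), a gene for a TGF-beta family ligand, followed. The exception with a large gain was an intronic window of L1td1, which encodes an RNA-binding protein, at 6.11, 5.90, 6.37 and 6.31 in KO and 4.30, 4.23, 4.51 and 4.01 in Ctrl (+1.91, SE 0.32, limma adjusted p = 2.2e-06).

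Genes of LIF-STAT3 signalling, a pathway that sustains the naive state in culture, had 11 of 71 decreased (15.5%) and 3 increased windows (4.23%). Decreases concerned the receptors and a target: Il6st (-3.78), the shared receptor subunit gp130, read 0.85, 1.39, 0.26 and 2.32 in KO and 5.19, 5.00, 4.99 and 4.78 in Ctrl, and Lifr (-2.16), the LIF receptor, Pim1 (-2.61), a kinase gene induced by STAT3, and Socs3 (-1.16), a feedback inhibitor, also decreased. The Pim1 window lies in a coding exon and holds an OCT-SOX word without mismatch. Increases concerned Il6ra (+1.89), the receptor of another cytokine, and Stat3 itself (+1.82), whose window 654 bp from a start read 4.89, 4.69, 4.87 and 5.32 in KO and 3.58, 3.46, 2.46 and 2.98 in Ctrl.

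Genes of FGF-ERK signalling, which MEK inhibition acts on, had 16 of 144 decreased (11.1%) and 9 increased windows (6.25%). Besides Fgf4, decreases were found at Map2k1 (-1.37) and Map2k2 (-1.10), which encode the MEK kinases, and at Spry4 (-1.26), a feedback inhibitor gene, although the Map2k2 window lies 80 bp from the start of another gene, Zbtb7a. The receptor gene Fgfr2 (+1.61), the adaptor gene Grb2 (+1.47) and the receptor gene Fgfr1 (+1.34) had increased windows. At Fgfr2 the KO libraries read 4.14, 4.08, 3.95 and 3.36 and the Ctrl libraries 3.58, 2.52, 1.49 and 1.51, so the groups overlapped through Ctrl library 1.

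Genes of Nodal-BMP signalling had 9 of 99 decreased (9.09%) and 10 increased windows (10.1%), near the shares over all genes for decreases. The inhibitor gene Lefty2 (-2.58), Skil (-2.15), a gene for a SMAD corepressor, the ligand gene Bmp4 (-1.82) and the BMP target Id1 (-1.80) decreased, and the windows of Lefty2 and Skil hold OCT-SOX words without mismatch. The receptor genes Acvr2b (+1.87) and Bmpr1a (+1.81), the target Id2 (+1.42) and the transducer gene Smad3 (+1.41) increased. The Id2 call was lost without Ctrl library 2.

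Genes of the formative and primed states, which follow the naive state after implantation, had 18 of 75 decreased (24.0%) and 6 increased windows (8%). The decreased windows belonged to 5 of the 13 genes and the increased ones to 3, while 6 genes had neither. The windows of the transcription factor genes Foxd3 (-2.70), Otx2 (-2.33) and Zic2 (-2.0) decreased, and those of the DNA methyltransferase genes Dnmt3b (+1.16) and Dnmt3a (+1.16) increased. The Otx2 window read 2.10, 0.46, 0.28 and 0.51 in KO and 3.69, 3.12, 2.83 and 3.01 in Ctrl, with KO library 1 above the other 3. All Ctrl libraries lay above all KO libraries there.

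Genes of the primitive endoderm had 14 of 111 decreased (12.6%) and 15 increased windows (13.5%), and the median difference was +0.12. Decreases were found at Sox7 (-2.57), Sparc (-2.18), a matrix protein gene, Hnf4a (-1.44) and Pdgfra (-1.25), a receptor used as an early marker, whose call was lost in 4 of 12 alternative settings, each with a library left out. Increases were found at Amn (+1.76), Dab2 (+1.48) and Cubn (+1.44), which serve uptake by the visceral endoderm, and at the laminin gene Lamb1 (+1.29). The Sox7 window read 2.33, 1.04, 0.78 and 2.81 in KO and 4.34, 4.43, 4.39 and 4.10 in Ctrl (-2.57, SE 0.42, limma adjusted p = 1.4e-06). The Amn window read 4.01, 4.38, 4.80 and 4.83 in KO and 2.95, 2.52, 2.84 and 2.68 in Ctrl (+1.76, SE 0.38, limma adjusted p = 0.00024).

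Genes of the trophectoderm had 14 of 187 decreased (7.49%) and 20 increased windows (10.7%), with a median difference of +0.21. Of 24 genes 8 had a decreased and 11 an increased window. Windows of Klf6 (+2.13), Krt18 (+1.91), Fgfr2 and Elf5 (+1.49), a trophoblast stem cell factor gene, increased, and windows of Aqp3 (-3.09), a water channel gene, Plac1 (-2.34), Cdx2 (-2.02) and Cldn4 (-1.93), a tight junction gene, decreased. The Krt18 window, 2902 bp upstream of the start, read 4.28, 4.88, 5.80 and 5.20 in KO and 3.24, 2.81, 3.18 and 3.29 in Ctrl (+1.91, SE 0.42, limma adjusted p = 0.00033). The Cdx2 window, in an intron of the gene for the main trophectoderm factor, read 2.11, 1.92, 2.24 and 2.01 in KO and 4.20, 3.82, 4.03 and 4.30 in Ctrl (-2.02, SE 0.42, limma adjusted p = 0.00012), while the peak at the Cdx2 start was not called (-0.21). Of the 8 windows within 10 kb of Cdx2 4 decreased and 1 increased (+0.98, limma adjusted p = 0.04). The Cldn4 window has Mettl27 as its nearest gene, and the Plac1 window holds an OCT-SOX word without mismatch.

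Genes of Hippo signalling, which sets YAP and TEAD activity by cell position, had 23 of 193 decreased (11.9%) and 17 increased windows (8.81%). The kinase genes Stk3 (-3.53) and Lats2 (-3.02), the co-activator gene Yap1 (-2.63) and the DNA-binding partner gene Tead1 (-2.54) had decreased windows, and the co-activator gene Wwtr1 (+1.56), the kinase activator gene Mob1b (+1.43) and the scaffold gene Amot (+1.27) increased ones. The Lats2 window read 1.31, 0.90, 0.65 and 0.97 in KO and 4.19, 4.16, 3.63 and 3.91 in Ctrl (-3.02, SE 0.41, limma adjusted p = 9.5e-09), so every Ctrl library lay more than 2 units above every KO library. The Mob1b call was lost without Ctrl library 1, and the Amot call in 5 of 12 alternative settings, each with a library left out. Of the 19 measured genes 6 had windows that moved both ways.

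Genes of chromatin regulators had 24 of 213 decreased (11.3%) and 13 increased windows (6.10%). Decreases were found near Uhrf1 (-2.87), a gene of maintenance methylation, Hdac1 (-2.52) and Sap30 (-2.44), genes of the SIN3 deacetylase complex, and Ezh2 (-2.30), the Polycomb methyltransferase gene. Increases were found near Chd4 (+2.11), a gene of the NuRD complex, and Tet2 (+1.16), besides the Dnmt3 genes. The Uhrf1 window is nearer to Arrdc5, and the Chd4 window, in an intron of Chd4, is nearer to the start of Nop2. Genes of pyruvate and glutathione metabolism had 13 of 120 decreased (10.8%) and 7 increased windows (5.83%), with Gstm2 (-3.01), Pck2 (-2.96), Hk2 (-1.90) and Slc2a3 (-1.83) against Mgst2 (+1.71) and Gsr (+1.62). The Hk2 window lies at the start of this hexokinase gene and read 2.38, 2.91, 2.24 and 2.85 in KO and 4.42, 4.80, 4.47 and 4.27 in Ctrl.

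Housekeeping genes had 5 of 87 decreased (5.75%) and 4 increased windows (4.6%), the lowest share of decreases within 10 kb among the 12 lists. The windows named, near Rpl13a (-1.28), Tfrc (+1.3), B2m (+1.15), Ppia (+1.10) and Gapdh (+0.93), differed by 1.3 or less, and the Rpl13a window is nearer to Flt3l. The calls at B2m, Ppia, Gapdh and Map2k2 were each lost in 6 or 7 of 12 alternative settings, those at Sall4, Dnmt3a, Fgfr1 and Spry4 in 3, and those at Grb2, Map2k1, Socs3, Gsr and Rpl13a in 1. Read against all genes, the shares of decreased windows of the naive, pluripotency-associated, LIF-STAT3 and formative or primed lists were above 15%, and the shares of increased windows within 10 kb were highest for the primitive endoderm and trophectoderm lists. The 4 lists with the high shares of decreases had 14.5% to 20.6% decreased windows within 50 kb and 17.6% to 22.5% when each window was assigned to its nearest gene. The order of other lists changed with the distance. Housekeeping genes had 9.28% decreased windows within 50 kb and 14% by nearest gene, where all windows had 10.1%. In increases Nodal-BMP genes (11.6%) stood above the trophectoderm (10.4%) within 50 kb, and above the primitive endoderm by nearest gene (13.4% and 12.7%), where the trophectoderm had 17.6%.

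**Figure D2:**
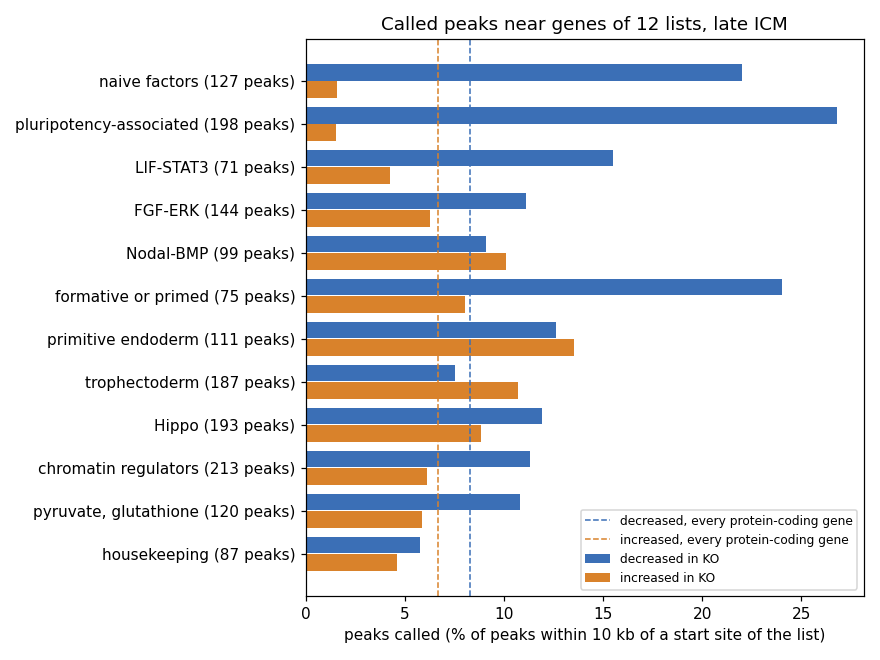
Share of windows called in Pou5f1-KO late ICM within 10 kb of a start site of 12 gene lists. Bars give decreased and increased windows in percent of the list's windows, whose number stands beside its name, and dashed lines give the shares over every protein-coding gene (8.25% and 6.65%). The naive (22.0%), pluripotency-associated (26.8%) and formative or primed (24.0%) lists stand out in decreases, and primitive endoderm (13.5%) in increases. In the formative or primed list 5 of 13 genes had a decreased window. The lists were chosen with earlier results of these data known.

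Some genes had many called windows of the same sign. Fn1, the gene of the matrix protein fibronectin, had the most decreased windows without an increased one, 13 of 20, with a mean difference of -1.99. Rnf125, a ubiquitin ligase gene, had 11 of 16 (mean -1.95) and Esrrb 9 of 15 (-2.12). Myo10, a gene for a filopodial myosin, had 9 of 18 (-2.04), Magi2 9 of 15 (-1.73) and Ttc39b 9 of 12 (-1.72). Gabbr1, a GABA receptor gene, had 8 of 11 (-1.84) and Shf 7 of 17 (-2.28). Among increases, Mycbpap had 10 of 16 windows (mean +1.54), Dapk1, a death-associated kinase gene, 9 of 11 (+1.75), Rhbdl2 8 of 15 (+1.70), Lmo7 8 of 22 (+1.65), Kel 8 of 9 (+1.51) and Anxa4, an annexin gene of epithelia, 8 of 15 (+1.45). Fam83b had 7 of 12 (+1.77) and Lrrfip1 7 of 10 (+1.62). Of the 13 Fn1 windows 5 also decreased in early ICM and 2 in Sox2-KO late ICM. None of the 13 holds an OCT-SOX word, where 5.50% of all decreased windows do.

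Some called windows of the same sign followed each other along chromosomes. Counting called windows with gaps of at most 50 kb and no called window of the other sign between them as a run, 3842 of 6974 runs of decreased and 4142 of 6753 runs of increased windows were single windows, and 728 and 393 had at least 5 members. Over all windows 10.1% decreased and 8.19% increased, and the part of uneven window spacing in these runs was not tested. The run with the most decreased windows, on chromosome 18, spanned 267 kb around Rnf125 and Rnf138, where 37 of 75 windows decreased and 69 of 75 differences were negative. On chromosome 17 a run of 280 kb from 36990704 to 37270296, around Gabbr1, olfactory receptor genes and H2-M3, had 32 decreased among 49 windows, and its mean rlog over all 49 was 2.13, 2.23, 2.29 and 2.24 in KO and 3.65, 3.55, 3.71 and 3.56 in Ctrl libraries. On chromosome 15 a run of 119 kb from 55199588 to 55318157, around Deptor, which encodes an inhibitor of mTOR, and Col14a1, had 25 decreased among 41 windows. In all 3 regions the window-wide mean was lower in every KO than in every Ctrl library. Runs of both signs were chosen by the calls in these same libraries, so the signs and means within them follow from that choice.

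The run with the most increased windows, 130 kb on chromosome 1 from 51468095 to 51597815, lay around Nabp1, a gene for a single-stranded DNA binding protein. It had 22 increased among 32 windows, all 32 differences were positive, and its mean was 3.27, 3.67, 3.88 and 3.76 in KO and 2.29, 2.50, 2.38 and 2.28 in Ctrl libraries. A run of 129 kb on chromosome 6 from 90921352 to 91050099, around Iqsec1 and Nup210, had 18 of 27 windows increased and 27 positive differences. The third, 70.2 kb on chromosome 11 from 94485346 to 94555542 around Mycbpap and Epn3, had 15 of 26 increased. Of the 3 runs of decreases 2 held 1 OCT-SOX word each and the other none, where 5.50% of all decreased windows held this word.

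**Figure D3:**
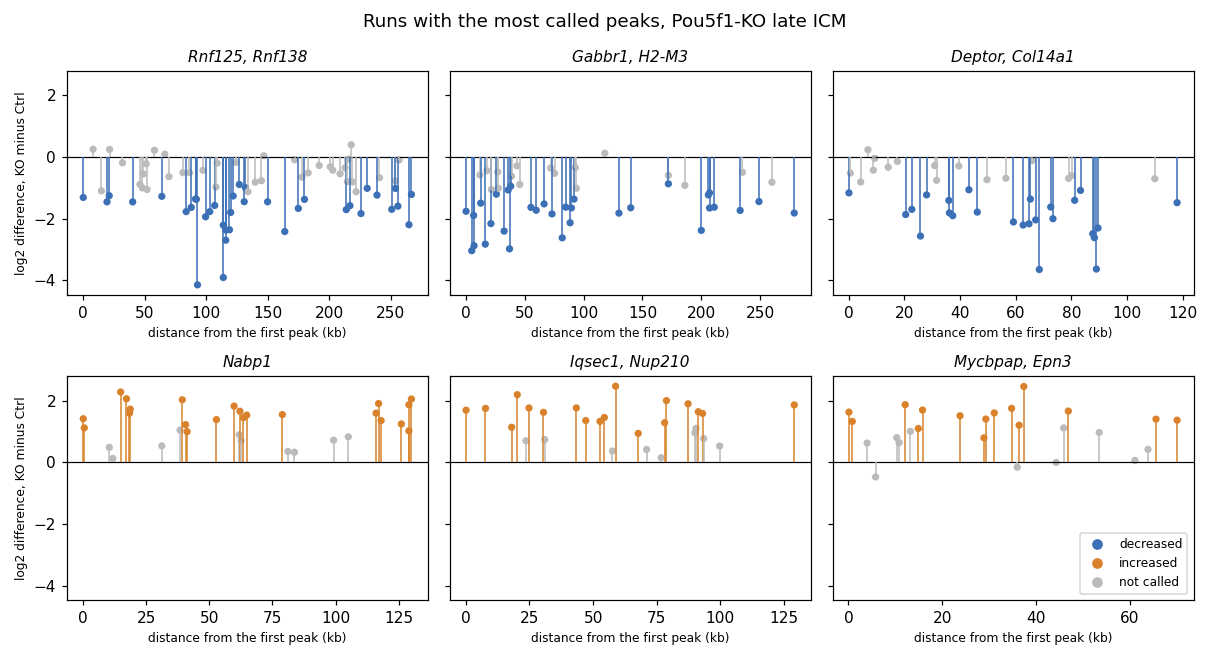
KO minus Ctrl difference (log2 scale) of every window in the 3 runs with the most decreased (top) and increased (bottom) windows, against the distance from the first window in kb. Colours mark windows called decreased, called increased and not called. Within the Nabp1 run all 32 differences are above 0, and within the Gabbr1 run 48 of 49 are below 0. The runs were chosen by these calls.

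Sequence words separated the 2 directions. The OCT-SOX word with at most 1 mismatch was found in 5.50% of decreased, 0.184% of increased and 0.387% of uncalled windows, and its share grew with the size of the loss, to 10.6% of windows that decreased by 2 to 3 and 15.8% of those that decreased by 3 or more. Of 97 windows with a word without mismatch, 84.5% decreased and 0 increased, with a median difference of -1.98. Of the 1255 windows whose best match had 1 mismatch 61.0% decreased, with 2 mismatches 29.7%, and with 4 mismatches 7.22%. The loss was thus graded with the match. In a description added after the data were seen, 817 of 1319 windows with a single match decreased (61.9%), and 30 of 33 with at least 2 matches (90.9%), with medians of -1.50 and -2.96. The 33 windows include the 15 that share both words of the Thsd7a window, described further on, so they are not independent examples. The word lay a median of 32 bp from the window centre in decreased and 41 bp in uncalled windows.

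The plain OCT word (ATGCAAA or ATGCTAA followed by T), which overlaps the OCT-SOX word, was found in 12.4% of decreased, 0.833% of increased and 2.98% of uncalled windows. The SOX words ACAATGG and ACAAAGG were found in 14.9%, 8.47% and 7.84%, and the ESRRB word AAGGTCA in 14.6%, 8.24% and 9.18%. The KLF word was less frequent in decreased (16.5%) and increased (16.9%) than in uncalled windows (21.5%). Among words of other lineages, GATA was found in 38.9% of increased, 12.4% of decreased and 15.9% of uncalled windows, and TEAD in 30.2%, 17.6% and 17.9%. In windows that increased by at least 2 the shares were 48.1% for GATA and 36.6% for TEAD, and 11.3% of increased windows held both words, against 3.19% of uncalled windows. The CDX word TTTATNG was found in 13% of increased, 8.08% of decreased and 8.99% of uncalled windows, the T-box word GGTGTGA in 6.94%, 4.08% and 5.87%, and the AP-1 word TGANTCA in 7.96%, 9.88% and 7.46%. The CTCF word AGGGGGC was found in 1.49% of increased, 3.8% of decreased and 4.93% of uncalled windows, and the AP-2 word in 11.5%, 8.98% and 11.2%. All words were searched on both strands, and a match is a description of letters, not evidence of binding.

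**Figure D4:**
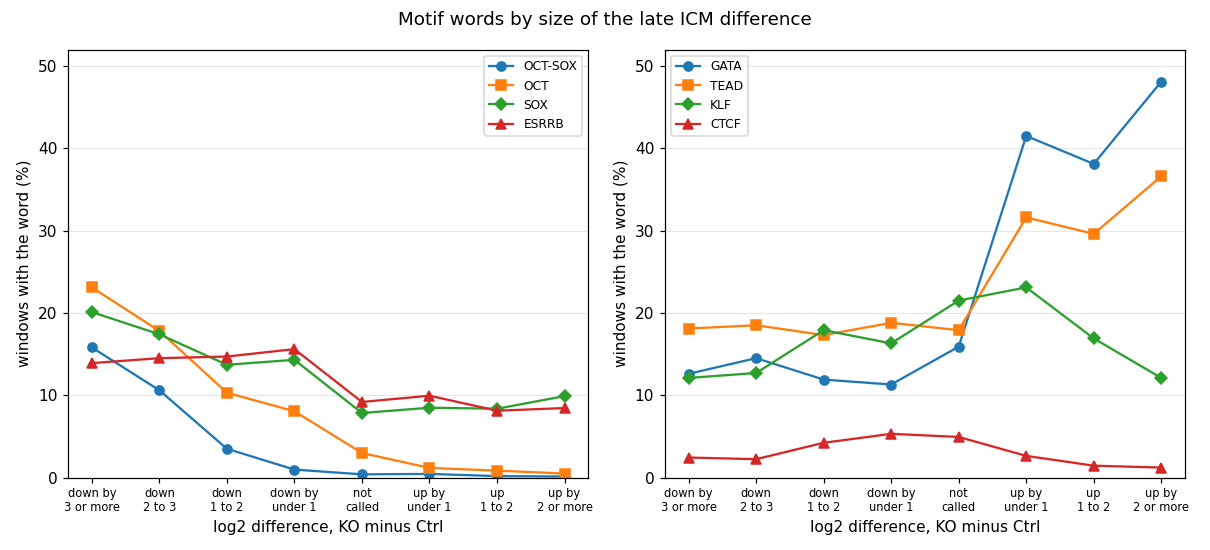
Share of windows that hold a word, in percent, by the size and sign of the KO minus Ctrl difference (log2 scale). The left panel gives OCT-SOX, OCT, SOX and ESRRB words, the right panel GATA, TEAD, KLF and CTCF words. OCT-SOX rises to 15.8% in the largest decreases, and GATA to 48.1% in the largest increases.

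Several of the strongest losses shared the 2 words of the Thsd7a window. This set was searched after the data were seen, starting from Thsd7a, so its counts are a description. Both words, in capitals in the Thsd7a, Pecam1 and Tspan2 windows, were found together on the same strand in 15 windows on 8 chromosomes, 40 to 72 bp apart, and 8 of the 15 were mostly marked as repeat. All 15 decreased in Pou5f1-KO late ICM, by 1.98 to 4.61 with a median of -3.13, all 15 decreased in Sox2-KO late ICM and 14 in Pou5f1-KO early ICM. Besides those of Thsd7a and Pecam1 the largest losses were nearest to Tspan2 (4.83 in Ctrl, 0.88 in KO), Scaf4 (4.51 and 0.57) and Ubtf (4.67 and 0.91), which encode a tetraspanin, an RNA-binding protein and a factor of ribosomal RNA transcription. The weakest was nearest to Eefsec, at 2.03 in Ctrl and 0.05 in KO.

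At Pou5f1 itself (chr17:35506018-35510772, plus strand) no peak in or upstream of the gene was called in this fit, although the upstream peaks were called with a replicate block. The peak at the start read 5.24, 5.30, 4.93 and 4.22 in KO and 5.10, 5.13, 5.15 and 4.09 in Ctrl (+0.06, SE 0.33, limma adjusted p = 0.93), and the peaks 2001 and 3204 bp upstream differed by -0.50 (limma adjusted p = 0.083) and -0.76 (limma adjusted p = 0.097). Peaks in an intron (+0.26) and in a coding exon (-0.02) were not called either. The exon peak lies over exon 3, and the KO design removes exons 2 to 5, the part between the loxP sites of the flox allele. For the mKO2 allele the methods describe insertions upstream of the start and in intron 1, without naming a deletion. Mean rlog of this peak was 2.60 ± 0.59 in KO and 2.62 ± 0.47 in Ctrl libraries (SD, n = 4 each), so a loss of this segment was not seen in the KO libraries, and these peaks do not check the genotype. An intronic window of the next gene, Tcf19, decreased by 1.67. The promoter of Pgk1 was also looked at, since the mKO2 allele carries a PGK promoter, and its peak read 7.07, 6.97, 6.84 and 6.55 in KO and 6.09, 5.86, 6.07 and 6.06 in Ctrl (+0.84, SE 0.25, limma adjusted p = 0.0088), with no overlap. The same peak was +1.01 in Pou5f1-KO early ICM and +0.87 in Sox2-KO late ICM, whose allele also carries a PGK reporter. It was not called in Pou5f1-KO morulae (+0.79, limma adjusted p = 0.3) or late morulae (+0.48, limma adjusted p = 0.7), and the late ICM call was lost when limma was run without a trend. Whether the gain lies at the PGK promoter of the reporter or at Pgk1 itself was not tested.

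KO and Ctrl embryos also differ by the paternal copy of the DNA around Pou5f1. In the 5 Mb distal of Pou5f1, which hold the Gabbr1 run and the Olfr761 window, 76 of 303 windows decreased (25.1%) and 12 increased (3.96%), the highest share of decreases of all 5 Mb bins of this chromosome. Over all of chromosome 17 the share was 10.9%. The same bin had 15.2% of windows decreased in Pou5f1-KO early ICM and 13.5% in Sox2-KO late ICM, where the Pou5f1 copies do not differ. The part of linked paternal DNA in the Pou5f1-KO values was not tested. Among chromosomes, X had the highest share of decreases, 13.9%, against 8.05% to 12.1% on autosomes, and 7.82% of its windows increased. On X 6.81% of windows decreased in Pou5f1-KO early ICM and 7.19% in Sox2-KO late ICM, against 5.429% and 4.88% of all windows.

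The late ICM effect was compared with that in Pou5f1-KO early ICM (E3.75), which has libraries of its own. There 8273 windows decreased (5.429%) and 4196 increased (2.753%). Of the windows that decreased in late ICM 6137 did so in early ICM, 39.8% of the late and 74.2% of the early list, and of those that increased 2355, which is 18.9% and 56.1%. The median difference of the decreased set was -1.01 in early and -1.56 in late ICM, and of the increased set +0.65 and +1.39. In limma's test of the difference between the late and early effects 0 windows passed an adjusted p of 0.05 (lowest 0.075), and 12131 (7.96%) had an unadjusted p under 0.05, so no window is called specific to late ICM in this fit. With a replicate block 84 windows passed, although the numbers were not taken to pair the libraries. The Rab3b window, named for its late value, was +0.03 in early and +2.90 in late ICM, a difference of 2.87 that did not pass this test (limma adjusted p = 0.087). The sets were chosen on the late ICM difference, so a smaller median in another comparison can follow from that choice.

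Few windows were called before the ICM stage, 282 decreased (0.185%) and 79 increased (0.0518%) in Pou5f1-KO morulae and 822 (0.539%) and 165 (0.108%) in late morulae, with 3 libraries per group. The levels of the 2 late ICM sets were then followed across stages. Over the decreased set, the mean rlog in Ctrl was 2.18 ± 0.06 (SD, n = 3) in morulae at E2.75, 1.99 ± 0.10 (n = 3) in late morulae, 3.16 ± 0.13 (n = 4) in early ICM and 3.53 ± 0.05 (n = 4) in late ICM. In KO it was 1.93 ± 0.22, 1.71 ± 0.06, 2.06 ± 0.06 and 1.80 ± 0.07 at the same stages. The Ctrl mean was thus higher in ICM than in late morulae, and KO means lay between 1.71 and 2.06 from the late morula on. Morulae were whole embryos without PD0325901 and ICMs were isolated after culture with it, so stage and treatment cannot be told apart in these means. Over the increased set the mean in Ctrl was 2.87 ± 0.10 in morulae, 3.220 ± 0.034 in late morulae, 2.54 ± 0.13 in early and 2.23 ± 0.03 in late ICM, and in KO 2.86 ± 0.06, 3.253 ± 0.032, 3.20 ± 0.16 and 3.68 ± 0.09. Over this set the 2 genotypes thus differed by no more than the spread between libraries in late morulae, and the mean was then lower in Ctrl ICM while it was not lower in KO late ICM. The late ICM values chose these sets, so they are a description, while the other stages come from other libraries.

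**Figure D5:**
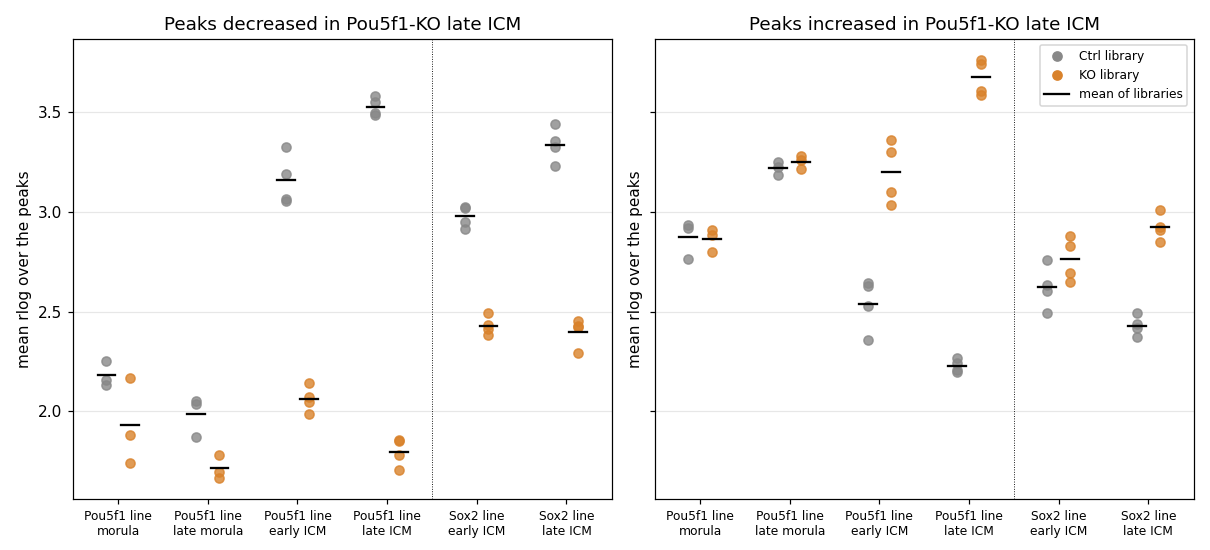
Mean rlog over the windows that decreased (left) and increased (right) in Pou5f1-KO late ICM, for every library of each stage and line. Points are libraries, bars are means of 3 or 4 libraries, and the dotted line separates the Pou5f1 from the Sox2 line. In late morulae KO and Ctrl means of the increased set are 3.253 and 3.220, and in late ICM 3.68 and 2.23.

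The same windows were then read in Sox2-KO late ICM, a line with its own Ctrl. There 7440 windows decreased (4.88%) and 4129 increased (2.71%). Of the windows decreased in Pou5f1-KO 5226 also decreased in Sox2-KO, 33.9% of the Pou5f1 and 70.2% of the Sox2 list, and 30 increased. Of the windows increased in Pou5f1-KO 1550 also increased, 12.4% and 37.5%, and 21 decreased. In limma's test of the difference between the 2 effects 844 windows (0.554%) were lower and 535 (0.351%) higher in Pou5f1-KO. Of the 844, 740 had decreased in Pou5f1-KO and 27.0% held the OCT word, and of the 535, 424 had increased and 43.9% held the GATA word. In all decreased windows the OCT word had a share of 12.4%, and in all increased windows the GATA word one of 38.9%.

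Several of the largest gains differed between the knockouts. These windows were chosen by their Pou5f1-KO difference, on which this test also rests. The Cog6 window was +3.56 in Pou5f1-KO and -0.02 in Sox2-KO (difference 3.58, limma adjusted p = 0.00012), the Lmo7 window +3.14 and 0.00 (3.14, limma adjusted p = 3.1e-06), and the Prss2 window +3.04 and -0.47 (3.52, limma adjusted p = 0.00019). Of the 9 large increases described 7 passed this test, while of the 10 largest decreases 2 did, those in Slc25a46 (-2.98) and far from Tbl1xr1 (-2.47). The Thsd7a window was -4.61 and -4.35 (difference -0.25, limma adjusted p = 0.92) and the Olfr761 window -4.39 in both. Near list genes, windows of Gdf3 (-3.05 and -0.43) and Lats2 (-3.02 and -0.89) differed by -2.62 (limma adjusted p = 0.0023) and -2.13 (limma adjusted p = 0.049). A p that misses the threshold at other windows does not show that the 2 knockouts acted alike.

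Among the called windows with the highest means the differences were small, from 0.52 to 0.76 in size, except near Smad7 (+1.31). The 5 decreased windows with the highest mean lay in Lars2 (-0.61), Gphn (-0.71), Trim28 (-0.68) and Brd1 (-0.59) and upstream of Igf2bp3 (-0.75), at means of 6.85 to 9.02 in KO. Of these 5 and the 5 strongest increased windows, 9 lost their call when limma was run without a trend in the variance, all but that near Smad7. The calls in Lars2 and Gphn were lost in 6 of 12 alternative settings each. The 5 increased windows with the highest mean lay in introns of Frmd4b (+0.61) and Tead1 (+0.52) and near Bhlhe40 (+0.76), Rel (+0.60) and Smad7 (+1.31), the last a gene for an inhibitory SMAD. Frmd4b and Tead1 thus had windows of both signs, as Tead1 lost 2.54 at an intronic window and Frmd4b 3.01 at a start.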

How the data were processed

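ATAC-seq was performed on pools of isolated ICMs or morulae, and the deposited table of 152393 windows and 44 libraries in 12 conditions was used. Per the study's methods, the authors trimmed reads, aligned them to mm10 with Bowtie2, took out duplicates with Picard and reads mapped to more than 1 place, moved read ends to the insertion site, called peaks with MACS2 and merged the summits found in at least 2 replicates into windows of 200 bp. The deposited log2 values were made by the authors from insertion counts per window (BEDTools) with the rlog function of DESeq2, over all libraries together. The insertion counts and depth of each library were not analysed here, so no count model could be fitted. rlog allows for depth and shrinks weak windows. The table of means per condition was not used.

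All 44 libraries were fitted with limma 3.58.1 (lmFit, contrasts.fit, eBayes with a trend) in R 4.3.3, with a mean per condition and no covariate, leaving 32 residual degrees of freedom. Tests were two-sided, with Benjamini-Hochberg adjustment over all windows, and windows were called at an adjusted p under 0.05. The script was tested on simulated data. Genes, start sites and bases came from GRCm38 with GENCODE vM21, where the authors used vM23, and were read with Python 3.11.15, pandas 2.3.3 and pysam 0.24.0. Capital and lower case letters of the genome file gave the share marked as repeat.

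Named windows were the 10 largest called changes each way without overlap of groups, the 6 largest at start sites each way, up to 4 each way for each of 12 gene lists, those in and within 5 kb of Pou5f1, the Pgk1 promoter, and the 5 strongest each way, of which 3 windows are not reported here. Genes with the most called windows (8 each way) and runs (3 each way) followed the same kind of rule. The members, lists and words were chosen with earlier results of these data known. Alternatives were quantile normalization, only the 8 libraries, only windows above the median, a stricter threshold, a minimum difference of 1, no trend, each library left out, a replicate block, other distances to genes and other matches.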

Additional observations from a re-analysis of the deposited data

Results flagged for a closer look

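Of 260 groups of 4 libraries, 246 at the named windows and 14 for means over a library, 16 had a library far from the other 3, and chance gives about 1 in 20 such groups. The KO library that stood apart read 0.67 at Gm6871, 3.15 at Dppa3, 4.34 at Il6ra, 2.10 at Otx2, 2.33 at Amot, 3.00 in the Pou5f1 intron and 7.19 in the strong Frmd4b intron window. The Ctrl library that stood apart read 0.80 at Ddr1, 0.63 at Kctd1, 5.35 at Dppa3, 5.28 at Esrrb, 0.84 at Id2, 4.74 at the intronic Tead1 window, 0.82 at Mob1b, 4.09 at the Pou5f1 start and 5.86 at Pgk1. Among the called ones of these windows, leaving the odd library out did not turn a direction, but the calls at Id2 and Mob1b were lost without Ctrl library 2 and Ctrl library 1, the libraries that stood apart there.

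The effects of Pou5f1 and Sox2 loss in late ICM differed, by limma's test of the difference, at 12 named windows. Pou5f1 minus Sox2 effects were below 0 at the Slc25a46 intron (-2.98), far from Tbl1xr1 (-2.47), at Gdf3 (-2.62), Lats2 (-2.13) and the Trim28 intron (-0.84). They were above 0 at Cog6 (3.58), Lmo7 (3.14), Prss2 (3.52), Mark2 (3.40), Rab3b (2.73), Ddr1 (2.85) and Tspan8 (2.43).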

How the results depend on the processing

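Of 123 named windows 118 were called, and 92 of the 123 kept their direction and their side of the threshold in all 12 settings tried on them. No called window changed sign. The uncalled peak at the Pou5f1 start (+0.06) ranged from -0.20 to 0.29 with single libraries left out, and the uncalled Pou5f1 exon peak (-0.02) from -0.30 to 0.13, and was 0.019 with quantile normalization. Decreased windows numbered 15404, 12646 to 14455 with a library left out, 7674 among windows at or above the median rlog, where fewer were tested, and 9707 at an adjusted p under 0.01. Increased windows numbered 12481, and 9256 to 11700, 7714 and 6408 in the same settings. Quantile normalization gave 13553 and 13569. The difference between late and early effects gave 0 windows, and 1 with quantile normalization. With at most 2 mismatches the OCT-SOX word was in 23.4% of decreased and 4.43% of increased windows. A gap of 25 kb left 224 runs of at least 5 increased windows in place of 393. Depth is unknown, so weak windows that were not called cannot be called unchanged.

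Replicate numbers were not taken to pair the libraries. Deviations from the group means of the same-numbered KO and Ctrl libraries correlated at 0.16, 0.06, 0.06 and 0.02, the labels tie nothing to the number, and 3 of the 4 KO libraries correlated best with the Ctrl library of their number, while KO library 2 did so with Ctrl library 3. With a replicate block 18147 windows decreased and 15487 increased, 84 differed between late and early effects and 3261, in place of 1379, between the Pou5f1 and Sox2 effects, and the 2 peaks upstream of Pou5f1 were called.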
